A study of Mus musculus with 6 samples.

Results

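Of the 69957 stretches of open chromatin found on chromosomes 1 to 19 of mouse intestinal crypts, 329 were present in all 6 peak lists with a summit inside protein-coding sequence and more than 2 kb from any annotated transcription start site (TSS). Peaks of the 6 lists that shared at least 1 base were merged into 1 consensus peak, and the summit was that of the list in which the peak ranked highest by fold over background. The peaks were thus chosen by their presence in every list and by the fold rank that set the summit, so their presence is not a result. They were 329 of 32147 consensus peaks shared by all 6 lists. The same rule placed 7220 shared peaks in introns and 7535 between genes, which serve as the comparison below.

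The libraries were made by ATAC-seq, in which the Tn5 transposase cuts and tags DNA where nucleosomes leave it exposed. Crypts came from 3 WT and 3 Arid3a cKO mice. In the cKO, floxed Arid3a was deleted by a tamoxifen-inducible Cre under the Villin promoter, which is active in the epithelium, so that stromal cells kept the gene. WT and cKO mice alike were given tamoxifen daily for 3 days, crypts were taken 1 month after the first dose, and neither the ages nor whether WT mice carried Cre is given in the sources used here. The titles number the samples but do not name the animals, so the spread between samples may be partly technical.

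Exons are usually thought of as sequence that is read only after transcription, yet a stretch of DNA can encode amino acids and also bind transcription factors. Such dual-use exons can act as enhancers of their own gene or of a neighbor, and others carry unmethylated CpG islands far from the start of the gene. In the crypt, stem cells at the base divide and their progeny become absorptive enterocytes or secretory goblet, Paneth and enteroendocrine cells.

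The peaks spanned a wide range of sequence, which a few of them show. The first 3 windows are 101 bases around the summit in GRCm38, 5′ to 3′ on the coding strand, with CpG dinucleotides in capitals. Zfp771, a zinc finger gene, held the highest ranked peak, Trim14, a gene of antiviral signaling, the next, and Exoc3l2, related to a subunit of the exocyst, the peak of lowest A+T content.

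Zfp771, chr7:127254258-127254358, + strand: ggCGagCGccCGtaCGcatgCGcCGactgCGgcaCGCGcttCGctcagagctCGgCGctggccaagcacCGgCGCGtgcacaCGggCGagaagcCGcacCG
Trim14, chr4:46507306-46507406, - strand: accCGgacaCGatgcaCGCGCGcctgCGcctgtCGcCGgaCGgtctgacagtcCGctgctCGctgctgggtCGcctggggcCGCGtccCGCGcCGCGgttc
Exoc3l2, chr7:19474255-19474355, + strand: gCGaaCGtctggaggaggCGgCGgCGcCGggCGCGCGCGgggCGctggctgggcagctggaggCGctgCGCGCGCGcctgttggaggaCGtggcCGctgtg

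The next windows show the other end of the range, with coding bases in capitals. Slc22a21, a carnitine transporter gene, and Kbtbd2, an adaptor of a ubiquitin ligase, were among the 3 peaks of highest A+T content.

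Slc22a21, chr11:53959273-53959473, - strand: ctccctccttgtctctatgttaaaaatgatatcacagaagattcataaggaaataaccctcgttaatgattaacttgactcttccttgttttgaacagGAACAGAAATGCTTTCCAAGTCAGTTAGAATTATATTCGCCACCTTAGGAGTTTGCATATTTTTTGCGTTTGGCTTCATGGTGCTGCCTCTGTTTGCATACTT
Kbtbd2, chr6:56789217-56789317, - strand: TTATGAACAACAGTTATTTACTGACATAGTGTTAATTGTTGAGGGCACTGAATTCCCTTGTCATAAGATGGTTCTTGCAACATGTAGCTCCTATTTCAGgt

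The 329 peaks lay in 320 genes, of which 312 held 1 peak, 7 held 2 and Sptbn4, a spectrin of the membrane skeleton, held 3. Their consensus width ran from 410 to 2905 bp with a median of 999 bp. Coding bases made up a median of 36.4% of that width (quartiles 19.85% and 65.89%), so most peaks reached well beyond coding sequence. Untranslated bases of the same exon were not counted as coding. A peak covered the chosen summit in all 6 lists for 305 of them and in fewer lists for 24. The nearest TSS was 2003 to 81915 bp away, with a median of 5466 bp, and belonged to another gene for 121 peaks.

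Coding exon peaks were found in the last coding exon more often than the amount of coding sequence there would give. The last coding exon held 124 of 329 summits, or 37.69% (95% Wilson interval 32.62 to 43.04), whereas 18.93% of the coding bases over 2 kb from a TSS lay in last coding exons. Internal coding exons held 173 summits, or 52.58% (47.19 to 57.92), against 74.17% of the bases. First coding exons held 13 and genes with a single coding exon held 19, against 3.303% and 3.605% of the bases. In all there were 16.8 peaks per Mb of coding sequence over 2 kb from a TSS. The intervals cover counting error only. The summit lay a median of 65.71% of the way along the coding sequence, and 126 peaks, or 38.3%, fell in its last 25%. The rule left out summits within 2 kb of a TSS. This place was not computed for the coding bases that remain, so these values have no baseline. Exons with a peak were also long, with a median of 280 bp against 183 bp for the exon of a coding base over 2 kb from a TSS, and 53 exceeded 1 kb.

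**Figure D1:**
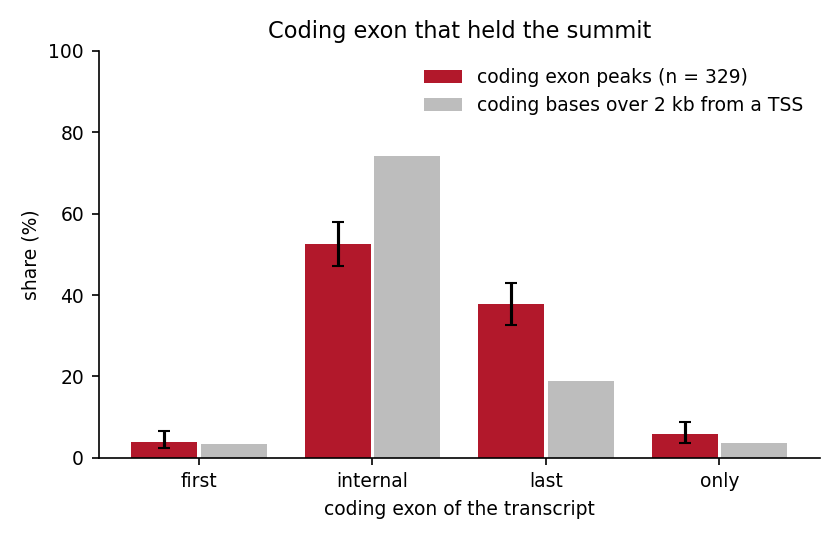
Share (%) of the 329 coding exon peaks with the summit in the first, internal, last or only coding exon (red, bars are 95% Wilson intervals) and share of the coding bases over 2 kb from a TSS in the same class (gray). The last coding exon held 37.69% of peaks and 18.93% of bases.

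Coding exon peaks were richer in G and C than the other distal peaks. Within 100 bp of the summit their median A+T content was 37.81% (quartiles 31.34 and 44.78), compared with 50.75% in intronic and 50.25% in intergenic peaks and with 49.35% over the coding bases more than 2 kb from a TSS. CpG-rich sequence, defined as at least 55% G+C and an observed to expected CpG ratio of at least 0.6 over 501 bp, was present at 135 coding exon peaks, or 41.03% (35.85 to 46.42). The share was 1.233% of intronic and 4.22% of intergenic peaks, and 32.39% of all shared peaks, which include promoters. How the base composition of reads affects these peak lists was not tested.

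**Figure D2:**
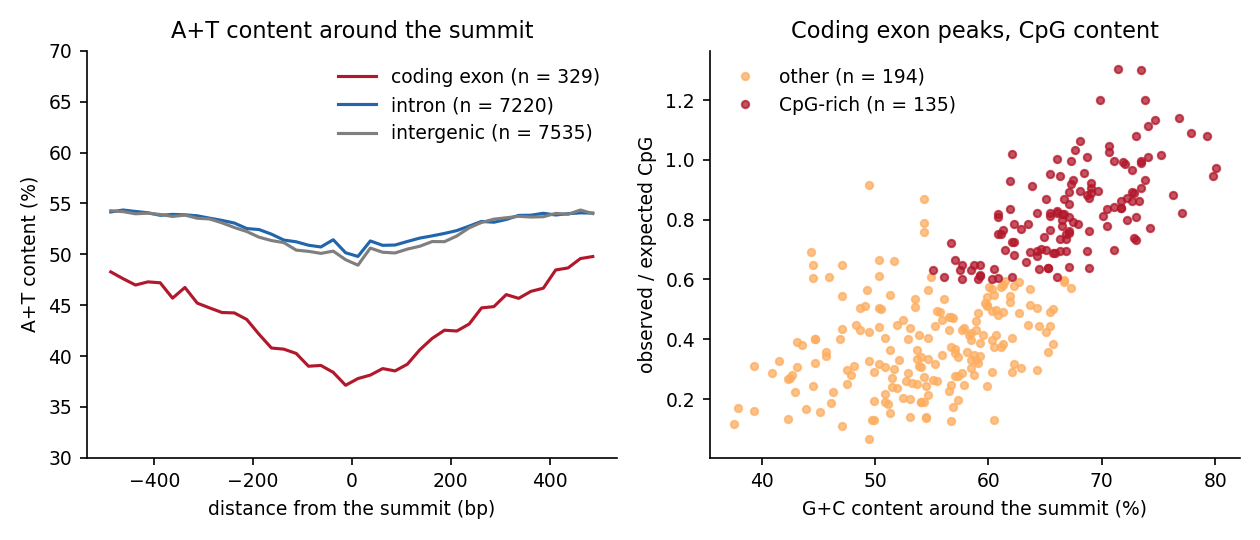
Left, mean A+T content (%) by distance from the summit (bp) for coding exon, intronic and intergenic peaks, lowest at the summit of coding exon peaks. Right, observed to expected CpG ratio against G+C content (%) over 501 bp for each coding exon peak, with the 135 CpG-rich peaks in dark red and the other 194 in orange.

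The ends of the A+T range showed the spread among samples. Exoc3l2, at 17.9% A+T in coding exon 2 of 11, had percentiles (the place of the fold within a list, where 100 is the highest) of 30.0, 72.2 and 63.4 in WT and 79.2, 72.5 and 80.3 in cKO. Kbtbd2, at 67.7% A+T in the first of 3 coding exons, had 48.4, 25.2 and 59.9 in WT and 30.4, 45.7 and 34.8 in cKO. WT 1 was far below the other lists in Exoc3l2, whose genotypes did not overlap by a narrow margin, and the genotypes of Kbtbd2 overlapped. Slc22a21, at 62.7% A+T, had 57.6, 69.4 and 78.0 in WT and 91.7, 65.0 and 82.7 in cKO. Acadsb, an acyl-CoA dehydrogenase gene at 63.2% A+T, ranged from 36.8 to 89.8, both ends of which were cKO lists. Foxo6, a forkhead gene at 18.4% A+T, had 26.5, 46.3 and 57.7 in WT and 65.8, 56.7 and 55.7 in cKO, and its groups overlapped.

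The CpG-rich peaks differed from the rest in where they lay. Of the 135 CpG-rich peaks, 90 (66.67%) were in a last coding exon and 27 in an internal one, whereas of the other 194 peaks 34 (17.53%) were in a last and 146 (75.26%) in an internal coding exon. Their exons had a median of 584 bp against 170.5 bp. The CpG class was set over 501 bp, a window that reaches outside a shorter exon. Exon length can thus enter the class itself, and its part in these shares was not tested. Genes with a CpG-rich peak had a promoter peak, with a summit within 1 kb of a TSS, in all 6 lists in 62 of 132 cases (46.97%), and genes with another peak in 148 of 191 (77.49%). A promoter peak was found in no list for 32 and 23 of these genes. Over the 320 genes together, 209 (65.31%, 59.94 to 70.32) had a promoter peak in all 6 lists and 54 (16.88%, 13.17 to 21.37) in none, against 66.05% and 25.35% of the 15902 genes with coding bases that far from a TSS.

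Among genes without a promoter peak in any list, the highest ranked coding exon peak was that of Apold1, an endothelial gene with a single coding exon, 2042 bp from its TSS. Its percentile was 85.8, 92.3 and 98.3 in WT and 93.7, 90.5 and 93.8 in cKO. The peak was thus high in all 6 lists, and the genotypes overlapped. Spi1, which encodes the myeloid and B cell factor PU.1, also had a peak in its last coding exon and no promoter peak, with a lowest percentile of 79.13, and the nearest TSS was that of Mybpc3 at 2851 bp. Both were singled out after their values were seen. The leukocyte markers Ptprc, Cd3e, Cd79a, Itgam and Lyz2 had no promoter peak in any list, Cd68 had one in each, and 10 to 11 of 12 crypt epithelial markers had one per list. Of 7 mesenchymal and endothelial markers, Col1a1, Pdgfra and Vim had one in each list. The part of other cell types in these peaks was not tested, and in bulk samples fewer cells of a type and less open chromatin per cell cannot be told apart.

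The coding exon peaks were ranked by their lowest percentile over the 6 lists, so by that choice the highest ranked stood near the top of every list. Zfp771 had percentiles of 97.8, 98.5 and 97.5 in WT and 95.01, 98.3 and 95.9 in cKO, in the second and last coding exon. Trim14, in the last of 6 coding exons, had 94.0, 94.4 and 96.8 in WT and 95.6, 94.8 and 97.1 in cKO. Espn, which encodes the microvillar actin-bundling protein espin, had 96.4, 95.5 and 94.5 in WT and 93.3, 95.9 and 94.4 in cKO. The genotypes overlapped in all 3, and the lowest of the 18 values was 93.3. Cyp4f17, in a family of similar fatty acid hydroxylase genes in which reads may be shared, ranged from 92.2 to 99.4. Nrip1, a nuclear receptor corepressor whose whole coding sequence lies in a single exon, ranged from 89.9 to 94.0 at 29599 bp from the nearest TSS. The remaining peaks in the first 10 were those of Sptbn4, Spred3, Zfp697, Synpo and Usp37. Over the 329 peaks the lowest percentile ran from 0.1018 to 95.01, and was above 50 in 124 and below 10 in 40. Their median of 38.47 was close to the 36.95 of intronic and 40.06 of intergenic peaks and under the 50.15 of all shared peaks.

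The few peaks in first coding exons ranked lower, with a median lowest percentile of 18.59 against 36.03 in internal, 45.48 in last and 50.92 in single coding exons. The highest of them was in Myom3, a muscle M-band gene, with 65.0, 91.1 and 81.1 in WT and 82.5, 83.2 and 81.6 in cKO. WT 1 was again the lowest list, and the genotypes overlapped. Ptgdr2, a prostaglandin D2 receptor gene with a single coding exon and no promoter peak, had 73.8, 76.7 and 75.8 in WT and 73.9, 69.1 and 68.3 in cKO.

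Genes of absorptive and secretory cells were among the members. Of 35 absorptive genes with coding bases over 2 kb from a TSS, 4 (11.4%) had a coding exon peak, and of 27 secretory genes 3 (11.1%), beside 2.01% of all such genes. The absorptive genes were Slc2a2, the basolateral glucose transporter, Rbp2, which binds retinol in enterocytes, Slc9a3, the apical sodium-proton exchanger, and Espn. The secretory genes were Fcgbp, a mucus protein of goblet cells, Gfi1, a repressor in the secretory lineage, and Foxa1, a pioneer factor. Of 26 stem cell and proliferation genes only Cd44, a Wnt target and hyaluronan receptor, had one, and of 34 crypt transcription factors, 15 leukocyte and 17 mesenchymal or endothelial genes 0 did.

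Slc2a2 had percentiles of 69.0, 80.2 and 80.2 in WT and 74.6, 79.6 and 77.1 in cKO, in coding exon 2 of 11. Slc9a3 had 31.2, 70.4 and 59.1 in WT and 81.6, 49.5 and 62.3 in cKO. Cd44 had 14.0, 26.3 and 35.4 in WT and 34.7, 35.0 and 22.1 in cKO, in coding exon 16 of 19 and 67415 bp from the nearest TSS. Slc2a2 was high in every list, Slc9a3 varied widely within each genotype, and the genotypes overlapped in all 3. Foxa1 was near the bottom of every list by fold over background, from 1.08 to 5.39. The fragments piled up at its summit, however, numbered 43, 68 and 98 in WT and 128, 61 and 99 in cKO. These were above the coding exon medians of 26, 42 and 52 in WT and 74, 34 and 51 in cKO. Gfi1 had 38.7, 15.4 and 26.8 in WT and 20.8, 6.87 and 11.4 in cKO, and its groups overlapped.

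Where a gene held several peaks, they could rank far apart. The 3 Sptbn4 peaks lay in coding exons 32, 26 and 13 of 35, with mean WT percentiles of 95.8 ± 3.18, 29.3 ± 16.8 and 61.0 ± 17.5 (SD, n = 3). In Srcin1, a Src signaling adaptor, coding exons 12 and 8 had mean WT percentiles of 71.2 ± 4.66 and 13.1 ± 13.2. In Tchh, the trichohyalin gene of hair follicles, both peaks lay in the same last coding exon of 4659 bp, at 65.3 ± 5.6 and 41.1 ± 1.19. Agap2 had 57.6 ± 11.9 in coding exon 2 and 79.7 ± 6.23 in coding exon 19. Pdzd2 had 70.6 ± 9.18 in coding exon 22 and 57.4 ± 15.9 in coding exon 19. The order of the Pdzd2 peaks was reversed in WT 2, at 62.6 and 75.6. At the limit of the rule, Hist1h1d, one of a family of similar histone genes, lay 2003 bp from a TSS and Wnt6 2031 bp, whereas Rin2 at 1984 bp and Acy1 at 1977 bp were left out.

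Matches to the AP-1, CDX, ARID3, GATA and HNF4 consensus letters were less common at coding exon peaks than at the other distal peaks, beyond counting error, whereas the intervals for KLF and CTCF reached a share of the other peaks. The letters were searched on both strands within 100 bp of the summit, and a match is not a bound site. AP-1 (TGANTCA) matched 20 peaks, or 6.079% (3.969 to 9.203), against 15.35% of intronic and 15.01% of intergenic peaks. The short CDX letters TTTAT matched 33 peaks, or 10.03% (7.232 to 13.75), against 43.8% and 42.83%. The ARID3 letters ATTAAA or ATCAAA and the GATA letters AGATAA each matched 19, or 5.775%, against 18.95% and 18.45% for ARID3 and 18.23% and 17.82% for GATA. HNF4 (CAAAGTNCA) matched 7, or 2.128% (1.034 to 4.326), against 5.831% and 5.375%. KLF (CACCC) matched 135, or 41.03% (35.85 to 46.42), against 46.93% and 45.52%. The core of the CTCF motif matched 10, or 3.04% (1.659 to 5.504), against 1.814% and 3.251%. The A+T content of the coding exon peaks was lower by the values above, and its part in these shares was not tested.

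**Figure D3:**
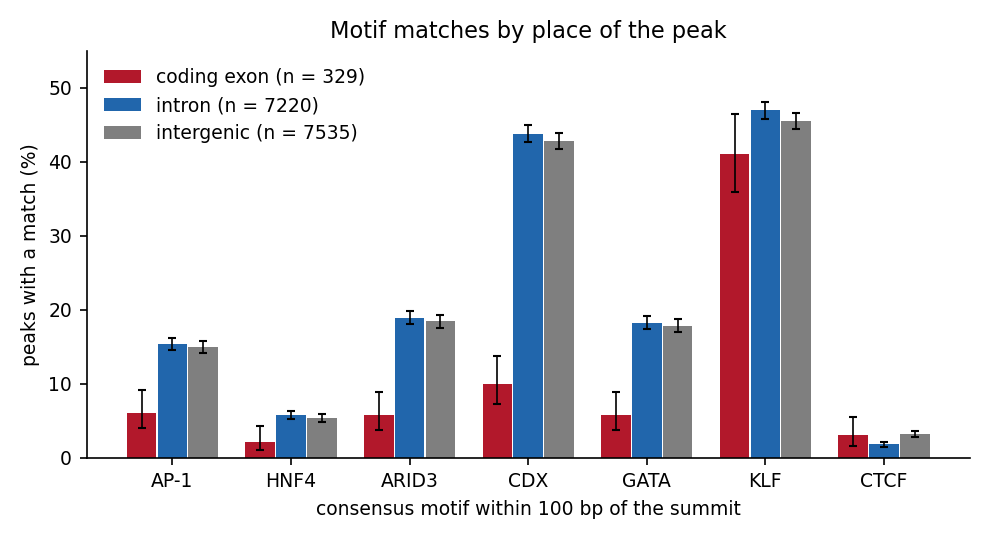
Share (%) of coding exon, intronic and intergenic peaks with a match to each of 7 motifs within 100 bp of the summit, with 95% Wilson intervals. CDX letters were at 10.03% of coding exon and 43.8% of intronic peaks, whereas the CTCF intervals of coding exon peaks spanned both other shares.

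The AP-1 matches were nearly all outside the CpG-rich class, at 19 of 194 other peaks and 1 of 135 CpG-rich peaks. These windows of 51 bases show the match in capitals, in genes of the named groups or with the match close to the summit.

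Nrip1, chr16:76293992-76294042, - strand: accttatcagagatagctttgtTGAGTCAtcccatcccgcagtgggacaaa
Rbp2, chr9:98498730-98498780, + strand: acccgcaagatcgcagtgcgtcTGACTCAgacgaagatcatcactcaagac
Cd44, chr2:102828537-102828587, - strand: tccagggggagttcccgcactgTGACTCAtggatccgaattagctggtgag
Foxn2, chr17:88462775-88462825, + strand: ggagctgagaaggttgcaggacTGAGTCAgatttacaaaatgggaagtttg

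In Nrip1, Rbp2 and Foxn2 the whole window was coding, so the AP-1 letters also encode amino acids, and in Cd44 46 of the 51 bases were. The match lay 9 bp from the summit in Foxn2, a forkhead factor, and 11 bp in Rbp2. The CTCF core in Synpo2l, a sarcomere gene, and in Kcnj10, a potassium channel gene, lay wholly in coding sequence and is shown in capitals.

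Synpo2l, chr14:20661142-20661192, - strand: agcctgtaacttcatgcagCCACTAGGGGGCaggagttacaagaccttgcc
Kcnj10, chr1:172368953-172369003, + strand: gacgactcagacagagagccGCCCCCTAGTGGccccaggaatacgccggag

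The comparison of genotypes asks whether loss of Arid3a changed how open these exons were. No peak was called at an adjusted p of 0.05 by limma on ranked fold values: 0 of 329 coding exon peaks and 0% of all 32147 shared peaks, with the smallest adjusted p of a coding exon peak at 0.597. At an unadjusted limma p under 0.05, 22 coding exon peaks passed, or 6.69%, beside 7.29% of all shared peaks, in either direction. Of the 22, 21 were higher in cKO. The split by direction was not taken over all shared peaks, so that count has no baseline. Every cKO list was above every WT list for 19 coding exon peaks, or 5.78%, beside 4.68% of all shared peaks, and below for 9, or 2.74%, beside 7.09%. The Arid3a gene had a promoter peak in 6 of 6 lists, which does not check the deletion.

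The median percentile of the 329 peaks was 46.79, 59.62 and 62.27 in WT and 65.81, 55.62 and 56.83 in cKO. WT 1 was the lowest and cKO 1 the highest, and the groups overlapped. These were also the shortest and the longest list, with 39773 and 57140 peaks, and the median number of fragments piled up at the summit was 26 and 74. The median difference, cKO minus WT, was 1.97 percentile points over the coding exon peaks, with 203 of 329 higher in cKO. Over all shared peaks it was -0.107, with 49.25% higher. The median difference of the coding exon peaks was -1.65 without WT 1, so its direction rests on that list. By log2 fold centered on the median of each list, it was 0.00616 in log2 units, with 168 of 329 higher in cKO. The intronic and intergenic peaks had median differences of 1.068 and 1.972 points, with 54.52% and 58.78% of peaks higher in cKO against 61.7% of coding exon peaks. By A+T content the median difference of the coding exon peaks was 0.881 among the 110 of lowest content (64 higher), 3.85 among the 109 in the middle (72 higher) and 1.37 among the 110 of highest content (67 higher). The part of list length in the difference was not tested.

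**Figure D4:**
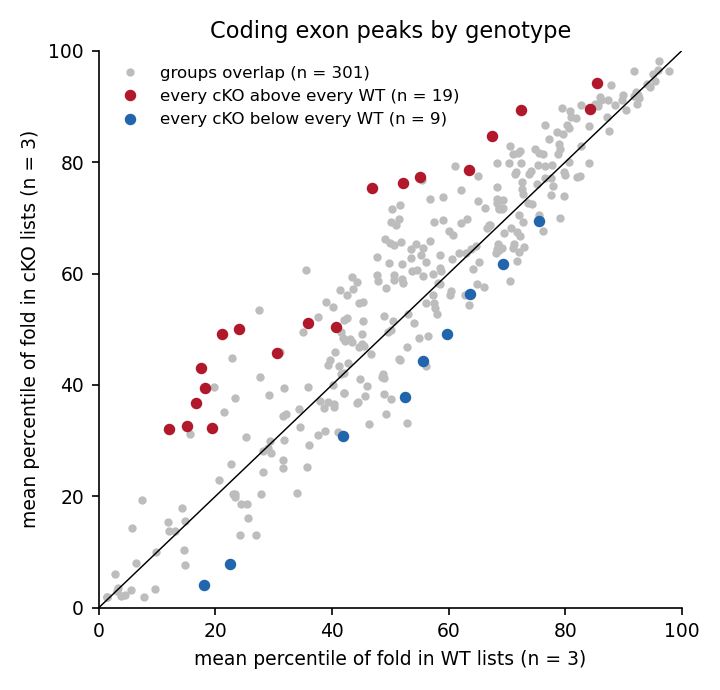
Mean percentile of fold in the 3 cKO lists against the mean in the 3 WT lists for each coding exon peak, with the line of equality. The 19 peaks with every cKO above every WT are red, the 9 with every cKO below are blue, and the other peaks, whose genotypes overlapped, are gray.

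Among the peaks higher in every cKO list, Fcgbp had the largest difference. Its percentiles were 22.2, 58.2 and 60.4 in WT and 86.4, 71.4 and 68.5 in cKO, a difference of 28.5 points with the lowest value in WT 1 (effect 0.937, SE 0.284, limma adjusted p = 0.597). Grin2c, an NMDA receptor subunit gene, had 10.1, 17.7 and 35.4 in WT and 64.7, 36.2 and 46.7 in cKO. The gap between the closest lists was narrow in Grin2c, and cKO 1 was the highest in both. Fgf23, the phosphate hormone gene, had 47.2, 51.3 and 58.0 in WT and 82.6, 66.0 and 80.0 in cKO. Dpysl5, a neuronal cytoskeleton regulator, had 10.9, 17.8 and 24.1 in WT and 59.3, 37.2 and 32.6 in cKO. Slc25a41, a mitochondrial ATP-Mg/phosphate carrier, had 21.8, 18.0 and 32.4 in WT and 69.9, 42.4 and 37.8 in cKO. In 4 of these 5 genes, all but Fgf23, WT 1 or WT 2 was below 25. The fragments piled up at the summit of Dpysl5 numbered 15, 14 and 16 in WT and 25, 17 and 15 in cKO. Grin2c had 14, 15 and 22 fragments in WT and 37, 18 and 23 in cKO. Slc25a41 had 16, 12 and 20 in WT and 38, 15 and 20 in cKO, and Fgf23 23, 25 and 30 in WT and 44, 24 and 35 in cKO. All of these were below the coding exon median in every list. Fcgbp, with 19, 37 and 40 in WT and 75, 39 and 44 in cKO, was above it only in cKO 1 and cKO 2.

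Among the peaks lower in every cKO list, Smarcc2, a subunit of the SWI/SNF chromatin remodeler, had the largest difference in fitted effect. Its percentiles were 13.9, 20.4 and 20.2 in WT and 2.21, 7.87 and 2.46 in cKO (effect -0.67, SE 0.279, limma adjusted p = 0.669). Foxn2 had 20.6, 19.2 and 27.7 in WT and 12.7, 5.03 and 5.91 in cKO. Both ranked low by fold over background in every list. The fragments piled up at the summit of Smarcc2 numbered 23, 40 and 81 in WT and 78, 41 and 52 in cKO. The medians of the coding exon peaks were 26, 42 and 52 in WT and 74, 34 and 51 in cKO. Foxn2 was below the median in every list, with 16, 19 and 24 in WT and 33, 12 and 26 in cKO. Rbp2 had 49.8, 55.9 and 51.7 in WT and 39.6, 48.6 and 25.4 in cKO, and its nearest lists differed by little. 1110051M20Rik had 55.6, 56.2 and 55.2 in WT and 41.6, 52.2 and 39.1 in cKO. Ydjc, a deacetylase homolog, had 57.8, 63.8 and 57.5 in WT and 54.6, 55.8 and 36.9 in cKO, again with little between the nearest lists. The adjusted p of these 10 genes ran from 0.597 to 0.738 by limma, so none passed the test.

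The windows of 101 bases around the summits of Fcgbp and Smarcc2, which had the largest fitted effect upward and downward among coding exon peaks whose genotypes did not overlap, were wholly coding and are shown in capitals throughout.

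Fcgbp, chr7:28104886-28104986, + strand: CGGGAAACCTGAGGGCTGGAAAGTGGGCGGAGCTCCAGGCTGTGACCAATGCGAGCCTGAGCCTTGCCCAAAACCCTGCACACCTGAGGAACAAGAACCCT
Smarcc2, chr10:128487429-128487529, + strand: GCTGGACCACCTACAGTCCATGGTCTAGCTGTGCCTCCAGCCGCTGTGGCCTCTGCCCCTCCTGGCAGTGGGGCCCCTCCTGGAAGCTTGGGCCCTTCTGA

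**Figure D5:**
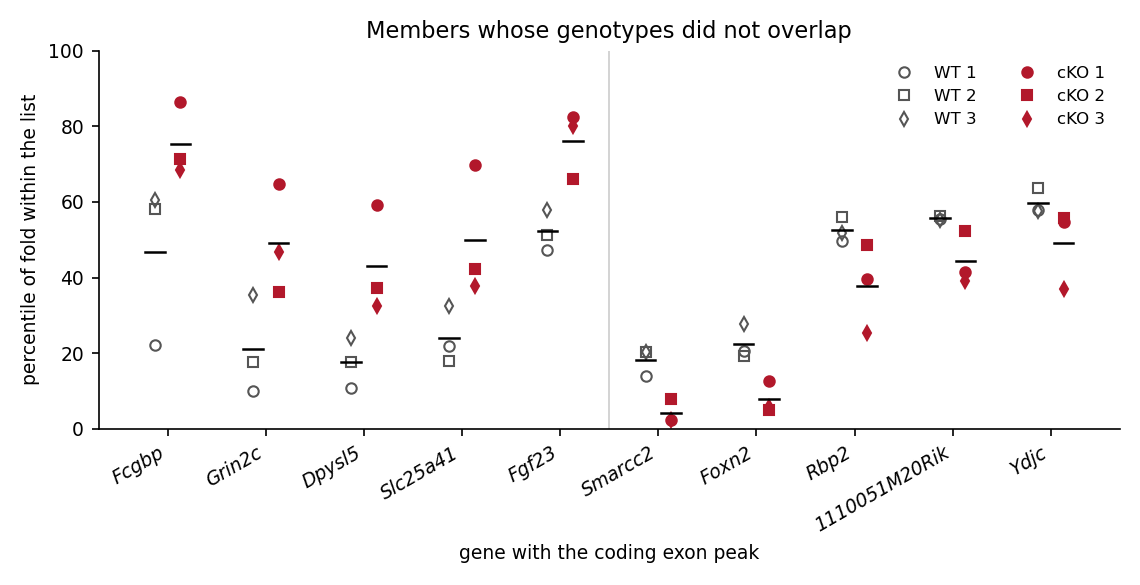
Percentile of fold within each list for the 5 genes with the largest effect upward (left of the line) and downward (right) among coding exon peaks whose genotypes did not overlap, with WT open, cKO filled and the mean as a line. The cKO 1 list was highest in each of the first 5 genes.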

How the data were processed

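Intestinal crypts of 3 WT and 3 Arid3a cKO mice were profiled by ATAC-seq, and 1 list of narrow peaks per sample was deposited. Per the study's methods the authors aligned reads to GRCm38 and called peaks per sample with MACS, with no input control described. The deposited lists give each peak a fold ratio over background, a −log10 p-value and a −log10 q-value at the summit, and a score that is a multiple of the latter. Without reads per peak, depth is known only from the number of peaks (39773 to 57140 on chromosomes 1 to 19) and from the pileup at the summit, solved from the fold and p-value. The 811 to 1218 peaks per list outside these chromosomes were left out. Summits were annotated with GENCODE M21 on GRCm38, and sequences were read from the NCBI GRCm38.p6 genome. Each peak was given the percentile of its fold within its list. Normal scores of the ranks among the 32147 shared peaks were fitted with limma 3.58.1 (R 4.3.3, variance trend) by genotype, with Benjamini-Hochberg adjustment over all of them, since the lists hold no counts. The fit was also run on simulated, independent scores with shifts larger than the effects named here. That run does not show what the fit can find at the sizes reported. The members, gene lists and motifs were chosen with earlier results of these data known. Named were the 10 peaks of highest lowest percentile, the 5 largest effects in each direction among peaks whose genotypes did not overlap, members in the gene lists, the 5 genes with most members, the 3 highest in each exon class, the 3 of lowest and highest A+T content, and the 2 peaks on either side of 2 kb. No pair of lists was identical (0 of 15). Alternatives were another ranking column, log2 fold, stricter peaks, other annotation rules, a replicate block and leaving out each sample. A marker gene and a sequence window are not reported here.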

Additional observations from a re-analysis of the deposited data

How the results depend on the processing

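Of 179 values over 18 results under the alternatives, 168 were labeled as unchanged and 11 moved, and the cause of the moves was not tested. The rule differed by result. Counts were held to 1.5 times the reported count, and the median difference in percentile to the spread between samples. These limits do not apply to A+T content, the share in the last coding exon or the median difference in log2 fold. For the 10 genes of largest effect, 105 of the 168 values, the label rested on direction and not on size. The median difference between genotypes, which has no test, changed sign without WT 1. The number of coding exon peaks was 184 at over 5 kb from a TSS and 317 to 390 when 1 list was left out. With GENCODE basic transcripts only, for coding sequence and TSSs alike, it was 479, which the limit of 1.5 times labeled as unchanged. The median A+T content and the share in the last coding exon stayed close under the alternatives run. No coding exon peak was called by limma under any setting, and 7 to 52 passed an unadjusted p under 0.05 (2.13% to 15.8%), beside 3.74% to 18.9% of all shared peaks, with the highest of both without cKO 2. Over all shared peaks, log2 fold called 1 and the replicate block 2. The replicate block called 0 coding exon peaks (25 at an unadjusted limma p under 0.05). Deviations from the genotype means correlated at -0.269, -0.00459 and 0.123 between same-numbered samples. Between the other samples they correlated at -0.326 (WT 3 with cKO 2) to 0.308 (WT 3 with cKO 1). These values cannot tell whether same-numbered samples shared a litter or batch, which is not known. Peaks lower in every cKO list numbered 1 when ranked by p-value (0.304%, beside 2.27% of all shared peaks) and 4 with a −log10 q of at least 5 (1.63%, beside 6.27%), where 10 were higher (4.08%, beside 4.41%). Leaving out 1 list gave 22 to 72 higher, the most without cKO 2 (21.9%, beside 17.1% of all shared peaks; without WT 3 50, beside 13.2%; without WT 2 35, beside 8.08%), and 11 to 45 lower, the most without WT 1 (13.7%, beside 16.1%; without cKO 2 31, beside 21.5%; without cKO 1 27, beside 11.0%; without WT 2 21, beside 10.2%). The median difference between genotypes ran from -1.65 without WT 1 to 4.33 without WT 3, against an SD between samples of 7.06, and was 0.0807 without cKO 1. Percentiles among the shared peaks, chosen after seeing the data, gave 1.49 (all shared peaks -0.639), with 26 higher (7.9%, beside 5.87%) and 9 lower (2.74%, beside 6.09%). The 10 genes of largest effect kept their direction in all 105 values, with limma adjusted p from 0.142 to 0.999. They were chosen as genes whose genotypes did not overlap, so leaving out 1 list could hardly reverse them. The replicate block and the fit without a variance trend return the same effect by design. Their direction was thus largely fixed in advance and is no check of the differences.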

Other observations

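Counted by gene symbol, in groups chosen after the members were seen, 12 of 324 Slc transporter genes with coding bases over 2 kb from a TSS had a coding exon peak (3.7%), as did 5 of 78 Kcn potassium channel genes (6.41%), 7 of 378 Zfp and Zscan zinc finger genes (1.85%) and 0 of 96 olfactory receptor genes, beside 2.01% of all such genes. In smaller groups, 3 of 24 Fox forkhead genes (12.5%) and 1 of 3 Irx homeobox genes (33.3%) had one. Of the 7 zinc finger peaks 5 were CpG-rich, and of the 12 Slc peaks 1 was. No repeat-masked base lay within 100 bp of the summit at 236 coding exon peaks (71.73%), compared with 50.51% of intronic and 48.6% of intergenic peaks. None of the 7 motifs matched 142 of the 329 coding exon peaks.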
